A study of Mus musculus with 10 samples.

Results

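The regions described here are places in the mouse genome where the co-repressor scaffold Sin3a was detected both with and without added Nanog, and where a FLAG-Nanog peak was called in cells given Nanog alone but not in cells given Nanog together with Sin3a. They were chosen by which of 4 deposited ChIP-seq peak lists had a peak there. Peaks that shared 1 base or more were merged into 45707 regions. To be kept, a region needed peaks in both Sin3a lists and in the FLAG list of cells given Nanog alone, and no peak in the FLAG list of cells given both. This left 996 regions, 2.18% of all, which are called the members below. The difference between the FLAG lists is therefore what selected them and is not a finding. No list gives a value where no peak was called, so a missing peak does not show that Nanog was absent.

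The cells were pre-iPSCs, which are incompletely reprogrammed. They were made from neural stem cells (female, strain 129/MF1), carry an Oct4-GFP-IRES-puro reporter, and were grown with serum and LIF. They had been stably transfected with PiggyBac transposon vectors with the CAG promoter, which is active in most cell types, and selected with hygromycin, blasticidin or both. The Nanog + Sin3a line received FLAG-tagged Nanog and Sin3a, the Nanog line FLAG-tagged Nanog and a vector labelled EV, and the Sin3a line Sin3a and EV. FLAG was precipitated in the Nanog + Sin3a line and in the Nanog line, and Sin3a in the Nanog + Sin3a line and in the Sin3a line, with 2 replicates in each of these 4 groups. The FLAG antibody sees the added Nanog and not the cell's own. The labels give no tag on Sin3a, so its antibody cannot separate added from endogenous Sin3a, and Sin3a was not profiled in the Nanog line in the lists used here. The lists come from separate precipitations, so peaks at 1 region do not show both proteins on the same DNA molecule. Input and IgG libraries were not used here. With 1 list a group, no difference below can be set against the spread between replicates, and no test was made.

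Nanog is a homeodomain transcription factor of the pluripotency network. Sin3a binds no known DNA motif of its own: it is brought to promoters and enhancers by transcription factors and carries the histone deacetylases Hdac1 and Hdac2. Sin3a complexes are known mainly for repression, but they also sit at active genes in embryonic stem cells, and Nanog has been found among their partners. Whether raising the amount of Sin3a changes where Nanog is found is the question that the FLAG lists of Nanog + Sin3a cells and Nanog cells address. The lists do not give the amount of FLAG-Nanog or of Sin3a in either line. An effect of added Sin3a therefore cannot be told apart from other differences between the lines.

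The 2 FLAG lists were of similar length and reach. They held 36286 peaks in Nanog + Sin3a cells and 38485 in Nanog cells, with median folds of 4.74 and 4.75. Fold is the authors' enrichment at the peak summit over the expected background, and −log10 q is their adjusted significance; higher values of each mean a stronger peak within its own list. The list in which the members lack a peak had the higher ratio of ChIP to control tags, as worked back from fold and significance. It was 1.37 ChIP tags per control tag in Nanog + Sin3a cells against 1.15 in Nanog cells. This ratio is not a read depth, and it does not show in which list peaks were easier to call. The lowest −log10 p of any peak was 3.51 and 3.44, in the same order, so the lists were called at nearly the same level.

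Most regions with Sin3a in both lines and a FLAG peak in Nanog cells also had one in Nanog + Sin3a cells. Of 12757 regions that had Sin3a peaks in both lines and a FLAG peak in Nanog cells, the 996 members made up 7.81% (95% Wilson interval 7.35 to 8.29%), and the other 11761 also had a FLAG peak in Nanog + Sin3a cells. The background share is 25.3%: of all 36194 regions with a FLAG peak in Nanog cells, 9144 had none in Nanog + Sin3a cells. Among regions with no Sin3a peak in any list it was 37.3% (36.7 to 38.02%, 7334 of 19640). The members' share depends on how presence is read: it was 13.9% with summits within 200 bp, 4.82% when a FLAG peak within 1 kb also counted as kept, and 4.67 and 0.619% when the 3 required peaks had to reach a −log10 q of 5 and 10. The background of 25.3% belongs to the rule of 1 shared base and cannot be set beside these 4 values. By that rule, where Sin3a was called in Nanog + Sin3a cells only the share was 21.6%, and where it was called in Sin3a cells only 21.2%. All intervals cover counting error only, because regions are not replicates of a line.

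The share without a FLAG peak fell steeply with the strength of Nanog binding, and it was lower with Sin3a than without it in 9 of 10 bins of FLAG fold that hold about equal numbers of regions. In the lowest bin, with a Nanog-line fold up to 3.35, the FLAG peak was missing from Nanog + Sin3a cells at 184 of 409 regions with Sin3a in both lines (44.99%, 40.2 to 49.8%) and at 1874 of 2884 regions without Sin3a (65.0%, 63.2 to 66.7%). In bin 5, from a fold of 4.45 to 4.91, these shares were 14.0% (11.9 to 16.4%) and 31.4% (29.5 to 33.4%). In the highest bin, above a fold of 9.49, no region of either kind lacked the peak, at 0 of 2407 (a Wilson upper limit of 0.159%) and 0 of 879 (0.435%). The share over all bins was 7.81% in regions with Sin3a, against 15.3% in regions without Sin3a once these were weighted to the same FLAG folds, a difference of -7.51 points (-8.07 to -6.96).

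**Figure D1:**
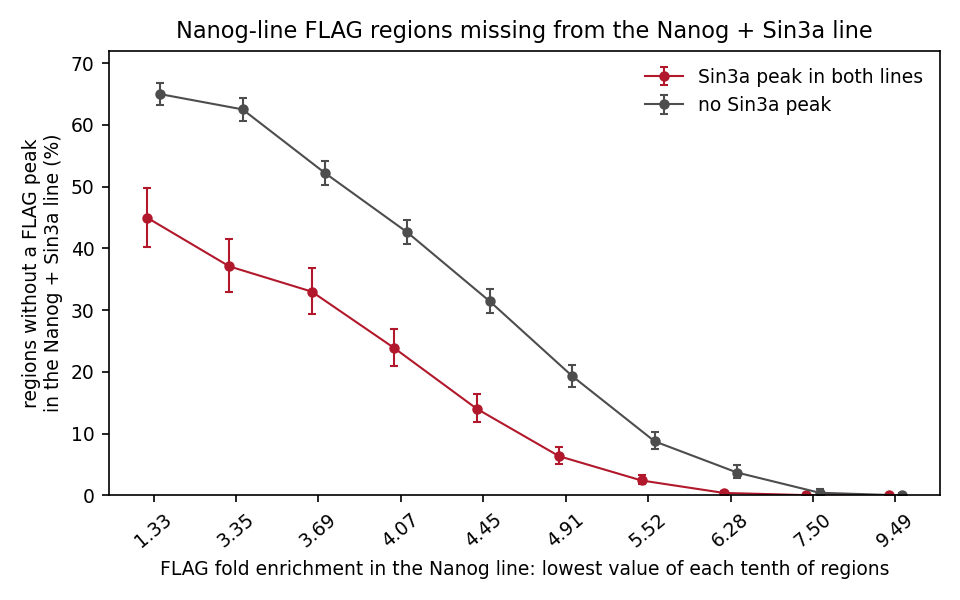
Share of regions with a FLAG peak in Nanog cells that had none in Nanog + Sin3a cells (vertical axis, %), by 10 equal bins of the Nanog-line FLAG fold (horizontal axis, labelled with the lowest fold of each bin). Red points are regions with Sin3a peaks in both lines, where the regions counted are the members, grey points are regions without Sin3a, and bars are 95% Wilson intervals. Both shares fall to 0 in the highest bin, and the red points lie below the grey ones in the lower bins, at 44.99% against 65.0% in the first.

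The gap was smaller between regions of like FLAG peak width. The median width of FLAG peaks in Nanog cells was 627 bp in regions of all 4 lists and 325 bp in regions with FLAG in both lines and no Sin3a. With regions compared within 5 bins of fold and 10 of FLAG peak width, the difference was -3.47 points (-4.07 to -2.87). Members themselves had narrow FLAG peaks, with a median of 294.5 bp, from 181 to 1372 bp.

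A FLAG peak was also called more often in Nanog + Sin3a cells where Sin3a was strong. When the 12757 regions were ranked by the mean −log10 q of both Sin3a lists, the weakest 20% held 380 members (14.9%, 13.6 to 16.3%) and the strongest 20% held 27 (1.06%, 0.728 to 1.53%). The same was read within the weakest 20% by FLAG fold, which held 793 of the 996 members. There the share fell with Sin3a strength in every step, at 37.1, 35.1, 26.1, 21.2 and 10.6% in 5 bins of Sin3a from weak to strong. In the next 20% by FLAG fold, with 181 members, the shares were 7.47, 10.8, 7.87, 4.24 and 2.58%. FLAG fold still varied within each 20%, and the Sin3a bins were not matched for it there, nor for the width of the peaks. These shares count called peaks only and do not show that the FLAG fold fell less where Sin3a was strong.

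Where Sin3a was called in both lines, a FLAG peak in Nanog cells only was uncommon, and one in Nanog + Sin3a cells only was rarer still. In the mirror class, with Sin3a in both lines and a FLAG peak in Nanog + Sin3a cells only, there were 194 regions, against the 996 members with a FLAG peak in Nanog cells only. The 194 are 1.62% (1.41 to 1.87%) of the regions with Sin3a in both lines and a FLAG peak in Nanog + Sin3a cells, where the background over all 34154 regions with that FLAG peak is 20.8%. Members thus outnumbered mirror regions 5.13 times. In regions without Sin3a, FLAG peaks of Nanog + Sin3a cells alone numbered 6640 and those of Nanog cells alone 7334, a ratio of Nanog line to Nanog + Sin3a line of 1.10. With Sin3a called in only 1 of its lists the ratio lay between, at 2.88 for Nanog + Sin3a cells and 3.22 for Sin3a cells. The excess of members depends on how presence is read: with summits within 200 bp in place of 1 shared base, there were 1256 members and 682 mirror regions, a ratio of 1.84. It was 9 when the 3 required peaks had to reach a −log10 q of 5, with 477 members and 53 mirror regions, and 3.20 with equal numbers of FLAG peaks. The ratios of 1.10, 2.88 and 3.22 belong to the rule of 1 shared base and cannot be set beside these.

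**Figure D2:**
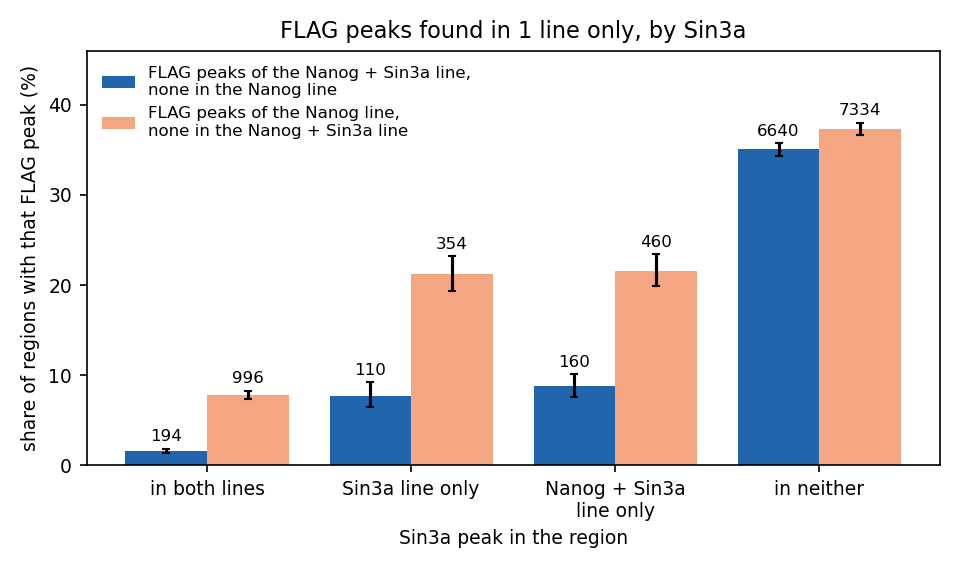
Share of regions with a FLAG peak in 1 line that lacked it in the other (vertical axis, %, with 95% Wilson intervals), by where Sin3a was called (horizontal axis). Blue bars are FLAG peaks of Nanog + Sin3a cells missing from Nanog cells, orange bars FLAG peaks of Nanog cells missing from Nanog + Sin3a cells, and the numbers count those regions. The pair on the left is the 194 mirror regions and the 996 members, and the bars differ little where there is no Sin3a peak, at 6640 and 7334 regions.

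The same direction was seen in fold where both lines had a FLAG peak, in regions that are not members. At the 11761 regions of all 4 lists, the FLAG fold had a median of 5.77 in Nanog + Sin3a cells and 6.74 in Nanog cells. The median log2 ratio of Nanog + Sin3a cells over Nanog cells was -0.22 (interval of the median -0.22 to -0.21), and the fold was lower in Nanog + Sin3a cells at 77.2% of them. At the 12306 regions with FLAG in both lines and no Sin3a, the medians were 4.74 and 4.84, the median log2 ratio was -0.03 (-0.04 to -0.02), and 53.1% were lower. Within 5 bins of the mean FLAG fold, the regions of all 4 lists lay between -0.23 and -0.18, and those without Sin3a between -0.07 and 0.09. In 5 bins of Sin3a −log10 q from weak to strong, the regions of all 4 lists had medians of -0.18, -0.21, -0.23, -0.24 and -0.23. These ratios share their lists with the rule that chose the members, and they come from 1 list a line, so a property of the list cannot be told apart from one of the line.

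The members were weak sites of Nanog in Nanog cells, which their selection favours. At low FLAG fold a peak was missing from the other list more often, both with and without Sin3a. The FLAG fold of the members had a median of 3.98 and a range of 2.14 to 7.50, against a median of 6.74 in the regions of all 4 lists. None of the 996 was in the strongest 20% of the FLAG list of Nanog cells by −log10 q, and 327 (32.8%) were in its weakest 20%. They were still somewhat stronger than FLAG peaks of Nanog cells alone without Sin3a, which had a median fold of 3.69 and a median −log10 q of 5.06, against 6.17 in the members. The number of ChIP fragments over the summit, worked back from each peak's fold and significance, had a median of 27 in the members and 48 in regions of all 4 lists. Mirror regions, selected in the same way from the other list, were weak there too, with a median FLAG fold of 3.60.

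The members' FLAG peaks stood a moderate distance above the calling threshold. For 972 members whose fragments could be recovered, the lowest fold that would have reached a −log10 p of 3.51 over the same background was computed, which is the lowest value in the FLAG list of Nanog + Sin3a cells. The observed Nanog-line fold was 1.54 times this value in the median member (25th percentile 1.39, 75th 1.74, range 1.02 to 2.84), against 2.67 times in regions of all 4 lists. With 75% of their enrichment above background 921 (94.8%) would have reached it, and with 50% of it 405 (41.7%). The lower 95% Poisson bound of the Nanog-line fragments lay above the level needed at 586 members (60.3%). These are values of the list in which the members had to be called, which raises them by selection. They describe the members' peaks and do not show that a missing peak was more than an effect of the threshold.

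On each side of the rule's edge lay FLAG peaks that were barely called, but in different lists. The members with the lowest FLAG −log10 q in Nanog cells were on chromosome 12 at 56085598-56086221 (mm9, as for all coordinates here), with a −log10 q of 1.39 and 26 fragments, and on chromosome 15 at 93167404-93168088 and chromosome 3 at 97671979-97672339, each with a −log10 q of 1.46 and 23 fragments. Just outside lay regions of all 4 lists whose FLAG peak in Nanog + Sin3a cells was barely called. These were on chromosome 11 at 103221269-103221915, with a −log10 q of 1.33 and 35 fragments, and on chromosome 13 at 55546799-55547466 and chromosome 3 at 95733620-95734645, each with a −log10 q of 1.41 and 26 fragments. In Nanog cells these regions had a FLAG −log10 q of 10.5, 4.06 and 4.45 in the same order, above the members just named.

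The members with the strongest FLAG peaks had clear enrichment in Nanog cells. On chromosome 5 at 124561120-124561368 the FLAG fold was 7.50, with 48 fragments over the summit (exact Poisson interval 35.4 to 63.6), and the Sin3a fold was 3.79 in Nanog + Sin3a cells and 4.51 in Sin3a cells. This region lay 85 bp from a FLAG peak of Nanog + Sin3a cells. On chromosome 9 at 107853139-107853731 the FLAG fold was 6.29 with 56 fragments (42.3 to 72.7), the Sin3a folds were 5.35 and 5.37 in the same order, and the nearest FLAG peak of Nanog + Sin3a cells was 10068 bp away. On chromosome 11 at 74992051-74992744 the FLAG fold was 6.70 with 45 fragments, and the nearest such peak was 11072 bp away.

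The next members in this order differed in how isolated they were. On chromosome 7 at 52074065-52074720 the FLAG fold was 6.89, and a FLAG peak of Nanog + Sin3a cells began 200 bp away. On chromosome 15 at 78663251-78663628 and chromosome 16 at 98072144-98073927 the FLAG fold was 6.59 with 42 fragments each, and the nearest peak was 4211 and 70003 bp away. At the chromosome 16 region Sin3a had a fold of 6.80 in Nanog + Sin3a cells and 5.95 in Sin3a cells. In these 6 regions the FLAG fold was 2.50 to 2.84 times the lowest fold that would have been called.

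Sin3a at the members stood somewhat below the middle of its lists, with few of the strongest peaks, and was weaker than at regions of all 4 lists. The median Sin3a fold of the members was 4.38 (25th to 75th percentile 3.74 to 5.15) in Nanog + Sin3a cells and 4.26 (3.65 to 5.07) in Sin3a cells. In regions of all 4 lists the medians were 5.51 in each. By −log10 q the median member stood at percentile 42.9 of the Sin3a peaks of Nanog + Sin3a cells and at 40.1 of those of Sin3a cells. In the same order, 66 (6.63%) and 54 (5.42%) of the members were in the strongest 20% of these lists, and 179 (17.97%) and 191 (19.2%) in the weakest 20%. The gap was smaller at like FLAG strength. In the weakest 20% by FLAG fold, the median Sin3a fold was 4.25 at 793 members and 4.58 at 1759 regions of all 4 lists in Nanog + Sin3a cells, and 4.20 and 4.42 in Sin3a cells. Regions with Sin3a in both lines and no FLAG peak at all were slightly weaker than the members, with medians of 4.11 in Nanog + Sin3a cells and 3.94 in Sin3a cells.

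**Figure D3:**
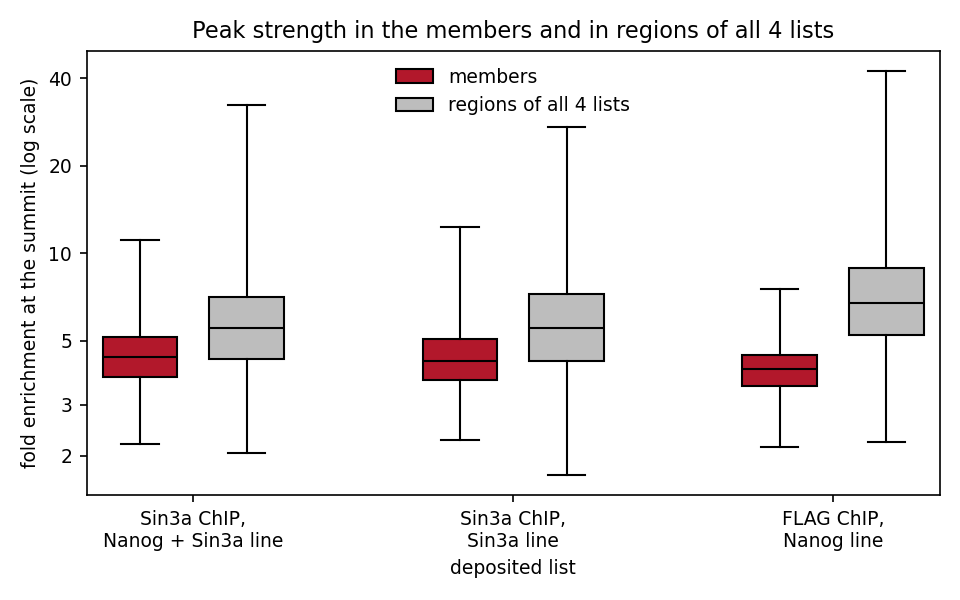
Fold enrichment at the summit (vertical axis, log scale) of the members (red) and of regions of all 4 lists (grey) in the 3 lists that have peaks in both. Boxes run from the 25th to the 75th percentile with the median as a line, and whiskers reach the lowest and highest value. The members' FLAG folds end at 7.50, below the 75th percentile of 8.87 in regions of all 4 lists, while their Sin3a folds overlap those regions over most of their range.

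Sin3a differed little between its lines at the members. The median log2 ratio of Sin3a fold, Nanog + Sin3a line over Sin3a line, was 0.03 in the members (interval of the median -0.005 to 0.060), and 524 of 996 (52.6%) were higher in Nanog + Sin3a cells. It was -0.01 in regions of all 4 lists, 0.03 in the mirror regions and 0.05 in regions with Sin3a and no FLAG. A Sin3a fold over 1.5 times higher in Nanog + Sin3a cells was found at 43 members (4.32%, 3.22 to 5.76%), beside a background of 3.51% over the 13693 regions with Sin3a in both lines. A fold over 1.5 times lower was found at 44 members (4.42%, 3.31 to 5.88%), beside 3.68%. Both shares are near their background. Read from fragments in place of fold, the median log2 ratio was -0.04 in the members and -0.10 in regions of all 4 lists, so the sign of this small value rests on the measure. These are the added and the endogenous protein together, and Sin3a cells lack the Nanog transgene, so the ratio does not compare lines with and without added Sin3a.

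**Figure D4:**
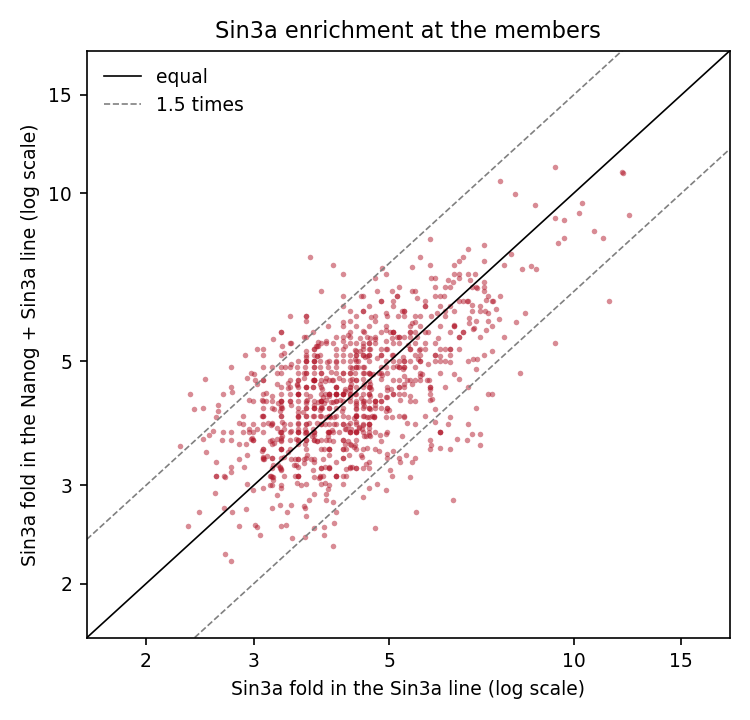
Sin3a fold of each of the 996 members in Nanog + Sin3a cells (vertical axis) and in Sin3a cells (horizontal axis), both on log scales. The solid line marks equal folds and the dashed lines a difference of 1.5 times. Points scatter evenly about the solid line, with 43 members above the upper dashed line and 44 below the lower one.

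Few members departed from this balance. The largest rise of Sin3a was on chromosome 17 at 29627739-29628471, with a fold of 7.69 and 59 fragments in Nanog + Sin3a cells against 3.71 and 41 in Sin3a cells. On chromosome 1 at 133859535-133860136 the folds were 4.65 and 2.50, in the same order. The largest drop was on chromosome 5 at 145675316-145675796, with a fold of 2.83 and 28 fragments in Nanog + Sin3a cells against 6.34 and 62 in Sin3a cells. On chromosome 6 at 99045209-99045954 they were 2.69 and 5.53. These 4 were picked as the extremes of 996 values.

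The members with the strongest Sin3a peaks are given with their FLAG fold, which the rule keeps low in all members. The strongest by −log10 q was on chromosome 17 at 25376516-25377505. Its Sin3a fold was 10.9 with 140 fragments (118 to 165) in Nanog + Sin3a cells and 12.0 with 153 fragments (130 to 179) in Sin3a cells, and its FLAG fold in Nanog cells was 5.19 with 33 fragments. On chromosome 12 at 112915992-112916975 the Sin3a folds were 9.16 and 12.3 in the same order and the FLAG fold 3.74. On chromosome 11 at 94852788-94854916 the Sin3a folds were 10.9 and 12.1 and the FLAG fold 4.59. In this wide region the FLAG summit lay 1005 bp from the Sin3a summit of Nanog + Sin3a cells.

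The other 3 of these 6 were similar. On chromosome 5 at 114580374-114581928 the Sin3a folds were 8.56 in Nanog + Sin3a cells and 10.8 in Sin3a cells, and the FLAG fold was 4.34. On chromosome 11 at 74986509-74987377 they were 11.1, 9.33 and 4.60, in the same order. On chromosome 7 at 148580691-148581128 they were 9.05, 9.31 and 3.61. The FLAG folds of these 6 regions ran from 3.61 to 5.19, within the range of the other members.

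Nanog and Sin3a summits at the members lay near each other, which is partly set by the rule, as only overlapping peaks were merged. The FLAG summit of Nanog cells was a median of 81 bp from the Sin3a summit of Nanog + Sin3a cells and 79.5 bp from that of Sin3a cells, and 57.6% and 58.2% of the members had these summits within 100 bp. The Sin3a summits of the 2 lines were 55 bp apart. In regions of all 4 lists the FLAG summit was 94 and 85 bp from these Sin3a summits, in the same order. There 52.1% and 55.8% lay within 100 bp, so over all widths the members' summits were slightly closer. Members were narrower than regions of all 4 lists, at a median of 541 against 894 bp, so regions of like width were also compared, and there the direction was the opposite. In regions of 500 to under 1000 bp, the FLAG summit was 109 bp from the Sin3a summit of Nanog + Sin3a cells at 493 members, against 84 bp at 5685 regions of all 4 lists. From the Sin3a summit of Sin3a cells it was 106 bp at the members and 76 bp at the regions of all 4 lists. In regions under 500 bp the distances were 55 against 43 bp and 55 against 40 bp. The Sin3a summits of the 2 lines were also farther apart at members of 500 to under 1000 bp, 70 against 51 bp, and the members' peaks were weaker in all 3 lists. The width of a merged region depends on how far its peaks are offset, and the members' FLAG peaks were narrower, at 294.5 against 627 bp. The comparison at like width therefore does not settle at which regions the summits lie closer. The part of peak strength in these distances was not tested.

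Many members lay close to a FLAG peak that Nanog + Sin3a cells did have. The distance from the edge of a member to the nearest FLAG peak of that line had a median of 3292 bp (2292 to 4137) and ran from 43 to 923335 bp. It was within 500 bp at 274 members (27.5%) and within 1 kb at 381 (38.3%, 35.3 to 41.3%). Of regions with FLAG in Nanog cells only and no Sin3a, 26.6% (25.6 to 27.6%) lay within 1 kb of such a peak. Of the mirror regions, measured to the FLAG peaks of Nanog cells, 46.9% (40.01 to 53.9%) lay within 1 kb and the median distance was 1202 bp (764 to 3070), so closeness was not particular to the members. The nearest peak of the 381 close members belonged to a region of all 4 lists in 271 cases (71.1%), and in 344 cases (90.3%) to a region where Nanog cells had a FLAG peak as well. In these cases Nanog cells had FLAG peaks at both places and Nanog + Sin3a cells at 1 of them. The other 615 members had no FLAG peak of Nanog + Sin3a cells within 1 kb. Close and distant members had similar folds, with FLAG medians of 3.93 and 3.99 and Sin3a medians in Nanog + Sin3a cells of 4.33 and 4.38.

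**Figure D5:**
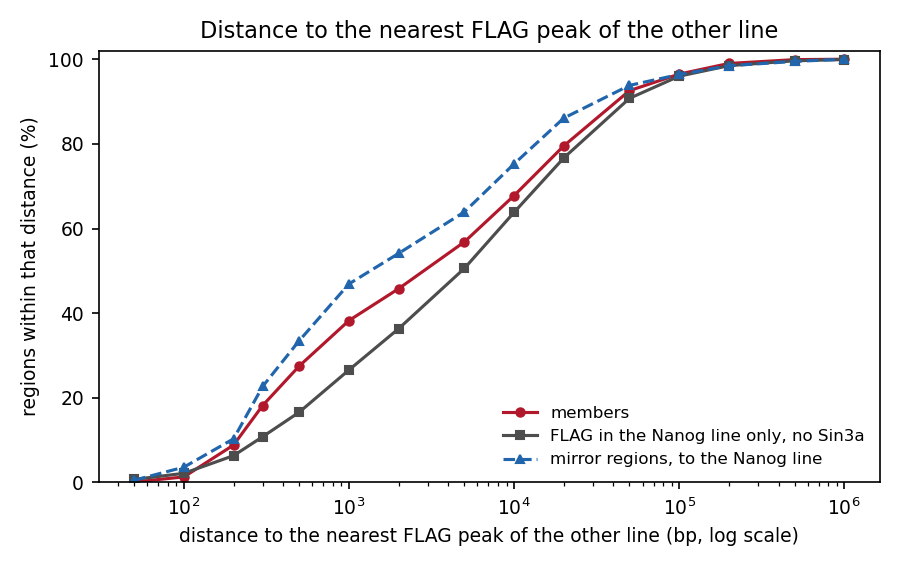
Share of regions (vertical axis, %) that lie within a given distance (horizontal axis, bp, log scale) of a FLAG peak of the other line. Red circles are the 996 members and grey squares the 7334 regions with FLAG in Nanog cells only and no Sin3a. Blue triangles are the 194 mirror regions, measured to FLAG peaks of Nanog cells. Within 1 kb lay 38.3% of the members, 26.6% of the regions without Sin3a and 46.9% of the mirror regions.

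The members farthest from any FLAG peak of Nanog + Sin3a cells had FLAG folds of 3.69 to 4.45. On chromosome 5 at 98758241-98758573 the nearest such peak was 923335 bp away. Its FLAG fold was 3.99, and its Sin3a fold 3.23 in Nanog + Sin3a cells and 4.42 in Sin3a cells. On chromosome 16 at 27388860-27389398 the nearest was 426439 bp away, and on chromosome 14 at 117324349-117324646 it was 411643 bp away, with FLAG folds of 3.69 and 4.45.

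Members were found on all 20 chromosomes with peaks. Their share of the regions with Sin3a in both lines and FLAG in Nanog cells ran from 5.31% on chromosome 13 (27 of 508, 3.68 to 7.62%) to 11.1% on chromosome 14 (26 of 235, 7.66 to 15.7%). These are the ends of 20 values. The X chromosome held 15 members, 1.51% of all (0.915 to 2.47%), and 127 regions of all 4 lists, 1.08%. Windows of 1 Mb that held any member numbered 657. A single member was held by 434 of these windows, and the fullest held 7.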

How the data were processed

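ChIP-seq of 8 samples was used through 4 deposited peak lists, 1 for each ChIP group of 2 replicates. Per the submitters' processing notes, the tools were SAMtools 0.1.19, Bowtie 1.0.0 and FastQC 0.10.1, and the build was mm9. The peak caller is not named there, nor whether replicates were pooled (not given in the sources used here). The fold at the summit (a ratio over background), the −log10 p and the −log10 q are the authors' deposited values. The deposited score equals 10 times the −log10 q without decimals in 100% of peaks. The summit offset is as deposited. Read totals were not used here.

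Peaks sharing 1 base were merged, and the peak with the highest −log10 q stood for its list in a region. Fragments over a summit were recovered from fold and −log10 p, with a tolerance of 0.02 of a whole number. Exactly 1 number was found for 98.0 to 99.8% of peaks by list, and none was used for 24 members in the FLAG list of Nanog cells. Intervals of shares are Wilson, of medians binomial, of fragments exact Poisson, and of the weighted difference normal, all at 95%. Duplicates cannot be seen, so intervals cover counting error only.

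The regions named are the 6 with the highest FLAG and the 6 with the highest Sin3a −log10 q, the 2 largest and 2 smallest Sin3a ratios, the 3 farthest from a FLAG peak of Nanog + Sin3a cells, and the 3 on each side of the threshold. Members, comparisons and this rule were chosen with earlier results of these data known. The gene table at hand is of another build (GRCm38), so no coordinate was converted, and genes, promoters and sequences of the regions were not used here. Values were computed in Python 3.11.15 with SciPy 1.17.1, pandas 2.3.3 and NumPy 2.4.6, and drawn with Matplotlib 3.10.9. Merging was tested on simulated data with well separated regions, and the number found in each class equalled the number simulated. Neighbouring regions joined by a shared peak were not simulated. Fragment recovery was likewise tested on simulated data. Alternatives for overlap, threshold, strength measure and width are given at the end.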

Additional observations from a re-analysis of the deposited data

How the results depend on the processing

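No paired analysis was possible because the deposited lists (1 a group) carry no replicate values, which also means that no replicate could be left out. The members numbered 996, with 1004 by 50% of the shorter peak, 1256 with summits 200 bp apart or less, 1056 with every list held to a −log10 q of 5 and 884 with equal numbers of FLAG peaks. They were 615 with no FLAG peak of Nanog + Sin3a cells within 1 kb, 477 with a −log10 q of 5 in the 3 required lists and 37 with 10, settings that keep fewer regions by construction. Their share of the regions with Sin3a in both lines and Nanog-line FLAG (7.81%) was 13.9% by summits, 4.82% with 1 kb, 10.3% at 5 in every list, 4.67 and 0.619% at 5 and 10 in the required lists, and 7.04% with equal numbers. Mirror regions (194) were 682 by summits, 103 with 1 kb, and 53 and 4 at 5 and 10. The ratio of members to mirror regions (5.13) was 1.84 by summits, 9 and 9.25 at 5 and 10, and 3.20 with equal numbers; these settings for mirror regions and ratio were chosen after the data were seen.

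Members over regions of all 4 lists had 0.590 times the median FLAG fold, 0.311 times the −log10 q, 0.563 times the fragments, and 0.610 times the fold at a −log10 q of 5. For Sin3a, as the mean of both lists, this was 0.784 for fold, 0.594 for −log10 q and 0.807 at 5. The median Sin3a log2 ratio of the members (0.03) was -0.042 with fragments, and by an alternative added later 55 members in place of 87 were then past 1.5 times in either direction. The difference at equal FLAG strength (-7.51 points) was -6.46 with −log10 q, -3.47 with width added, and -6.85 when the FLAG peak itself had to be overlapped, an alternative added after the data were seen. The 972 members that would be called at equal fold, a number nearly fixed by their selection, were 405 with 50% of the enrichment and 586 at the Poisson bound, the last added later. The Sin3a to FLAG summit distance (80 bp over both Sin3a lists) was 74 bp with 1 peak of each list. The difference in FLAG log2 ratio between regions of all 4 lists and regions without Sin3a (-0.19) was -0.23 at equal mean fold, also added later. Of 51 alternatives, 20 stayed within the interval of the value, or for counts within 1.5 times, 31 moved and 0 reversed a called value. Apart from settings that keep fewer regions, the cause was not tested.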

Other observations

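The fullest windows of 1 Mb also held many regions with Sin3a and FLAG. On chromosome 11 the windows that start at 98 and 100 Mb held 7 members each, of 39 and 41 regions with Sin3a in both lines and FLAG in Nanog cells. On chromosome 10 from 127 to 128 Mb there were 6 of 41, and on chromosome 6 from 125 to 126 Mb 6 of 32. Among the 29 windows with 4 or more members, a few held hardly any other such region: 4 of 6 on chromosome 3 from 52 to 53 Mb, and 4 of 7 on chromosome 16 from 96 to 97 Mb. These windows were picked after their counts were seen, and no test was made of them. Some members in the last windows named lay side by side, so the counts do not stand for separate sites. They were at 52071656-52072081, 52072338-52073279 and 52073520-52074327 on chromosome 3. On chromosome 16 they were at 96302870-96303418 and 96303723-96304164. Across all members, 90 lay within 10 kb of another member and 242 within 100 kb.

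Fold varied together in the Sin3a lists but little with FLAG. Across the 996 members, Pearson's r of log2 fold was 0.61 between the Sin3a lists of Nanog + Sin3a cells and Sin3a cells, and 0.19 between either Sin3a list and the FLAG list of Nanog cells. In regions of all 4 lists these were 0.81, 0.27 and 0.30. The members' folds span a narrower range, at 2.14 to 7.50 for FLAG against 2.23 to 42.4, and the part of this in their lower r was not tested. Regions share a library and are not independent.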
